A study of Homo sapiens with 15 samples.

Results

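The loops described here join non-promoter elements in LNCaP cells: 141656 loops that were called with H3K27ac but not with H3K4me3 and that had no protein-coding promoter at either end. They were chosen by rule from 505995 different anchor pairs, of which they made up 28.0%. A loop entered when its anchor pair stood in the H3K27ac loop set (296326 loops) and not in the H3K4me3 set, when its anchors lay 10 kb to under 1 Mb apart, and when neither 1 kb anchor overlapped the window of 2.5 kb to each side of the start of a canonical protein-coding transcript (Gencode, hg19). Of the 227504 loops found only with H3K27ac, 62.3% met these conditions, while 16555 non-promoter loops under 10 kb and 2681 of 1 Mb or more were left out. Beyond the loop calls themselves, no contact value entered the rule.

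LNCaP is an established human prostate cancer cell line. Cells were kept in phenol red-free medium with charcoal-stripped serum, which removes steroid hormones, and then received ethanol vehicle (0 m) or 10 nM dihydrotestosterone (DHT), a potent natural androgen, over 30 m, over 4 h, over 16 h or over 72 h. HiChIP joins DNA ends that lie close together in the nucleus and then enriches the ligated pairs that carry a chosen histone mark. The 15 samples comprised 10 with H3K27ac and 5 with H3K4me3, and 10 tables held 1 contact value for each loop, mark and time point, so no spread between replicates could be computed and no p-value is given. All groups were 1 cell line in hormone-depleted medium, and none was grown in full serum. FOXA1, a pioneer factor that opens chromatin, binds mostly at enhancers far from promoters in prostate cells. H3K27ac marks active enhancers and promoters, H3K4me3 marks promoters, and loops between non-promoter elements can tie several enhancers into a cluster. The androgen response element is an inverted repeat found at many androgen-driven enhancers. CTCF together with cohesin holds many loops in place, most often where its sites face each other.

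Some of the strongest of these loops carried a full androgen response element at an anchor. The element was searched as GNACANNNTGTNC (a palindrome, so both strands are covered) in the 5 kb bin around each anchor. Stretches of 61 bases from GRCh37 are shown for loops described below, on the forward strand with the element in capitals. The first lies in an intron of ABHD2, the second upstream of ACSL3 and outside coding genes, the third in an intron of B4GALT1 and the fourth in an intron of P2RX4, in the neighbourhood of CAMKK2. Each of these stands at the strongest loop near an androgen-response gene. The last is at the DUSP5 loop, whose contact was lower at 16 h than at 0 m.
ABHD2, chr15:89641038-89641098: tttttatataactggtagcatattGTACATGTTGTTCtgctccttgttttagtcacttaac
ACSL3, chr2:223650997-223651057: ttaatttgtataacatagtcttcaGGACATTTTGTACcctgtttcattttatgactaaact
B4GALT1, chr9:33163102-33163162: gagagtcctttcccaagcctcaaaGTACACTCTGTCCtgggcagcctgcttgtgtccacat
CAMKK2, chr12:121667784-121667844: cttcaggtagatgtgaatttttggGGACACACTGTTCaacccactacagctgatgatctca
DUSP5, chr10:112191638-112191698: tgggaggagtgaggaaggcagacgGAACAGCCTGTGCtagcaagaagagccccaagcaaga
In a separate loop at CSRP1 the CTCF core sequence, again in capitals, read forward at the left anchor and reverse at the right anchor, so that the cores faced each other across 30 kb.
CSRP1 left, chr1:201451346-201451405: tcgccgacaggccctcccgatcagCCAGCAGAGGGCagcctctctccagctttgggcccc
CSRP1 right, chr1:201482221-201482280: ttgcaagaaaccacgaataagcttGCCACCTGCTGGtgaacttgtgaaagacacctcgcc

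The loops rested on 93555 different anchors. Of these, 47.6% lay in introns of protein-coding genes, 9.3% overlapped a coding-gene exon and 43.1% lay outside coding genes. The median distance from an anchor to the nearest canonical coding start was 53886 bp, with quartiles of 21828 and 132985 bp. Both anchors lay in the same coding gene in 36968 loops (26.1%), and in 37575 loops (26.5%) both lay outside coding genes. No coding start stood between the anchors in 53.9% of loops, with an exact 95% interval of 53.6% to 54.2%, against 23.6% (23.2% to 23.9%) of H3K27ac-only loops that joined a promoter to a distal anchor. Other non-promoter loops came closer, with 49.1% of those found with both marks and 43.5% of those found only with H3K4me3. The label non-promoter holds for canonical coding transcripts only. Anchors within 2.5 kb of another start of a coding gene made up 11.4%, and 4.57% stood at the start of a long non-coding RNA (lncRNA), so that 15566 loops (10.99%) had a lncRNA start at an end. The label H3K27ac-only is likewise a matter of calling, since 9.65% of loops had an H3K4me3 loop within 1 bin of 5 kb at both ends.

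Most of the loops were short of reads and medium in length. The median length was 130 kb, with quartiles of 45 and 275 kb, against 160 kb for H3K27ac-only promoter to distal loops. Because every deposited value was a whole multiple of the value of 1 read pair, read pairs could be recovered for all of them, and the median loop held 3 or 4 H3K27ac read pairs at each time point. With H3K27ac, 2.62% to 8.60% of the loops had no read pair at a given time, and with H3K4me3 24.9% to 63.9% had none. Over all loops the tables held 2475168 to 4308555 H3K27ac read pairs and 2153262 to 10675614 H3K4me3 read pairs per time point. The non-promoter loops took 20.1% to 26.4% of the former and 4.55% to 6.89% of the latter. Contact is given on the TMM scale of the deposited tables, and the mean H3K27ac contact of a loop over the 5 time points had a median of 0.787, a 99th percentile of 7.46 and a maximum of 65.5. The strongest 1% (1417 loops) held 9.67% of all contact. Intervals below are exact 95% intervals for a ratio of read pairs, cover counting error only, and say nothing of the spread between cultures.

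The highest mean contact of all belonged to a 90 kb loop between lncRNA genes. Its left anchor, chr11:65187001-65188000, lay at the start of NEAT1, the scaffold RNA of nuclear paraspeckles. The right anchor, chr11:65277001-65278000, stood beside MALAT1, at the start of the antisense transcript TALAM1. Across the series from 0 m to 72 h its H3K27ac contact was 47.3, 70.7, 51.5, 86.2 and 71.6. The 16 h value was higher than the 0 m value by 0.87 on the log2 scale (0.60 to 1.14), from 161 and 406 read pairs, and H3K4me3 read pairs numbered 36 at 0 m and 71 at 16 h.

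In contrast to the NEAT1 loop, the loop second in mean contact was weaker at every time with DHT. This 10 kb loop in NAALADL2 (chr3:175197001-175198000 to chr3:175207001-175208000), a large gene on chromosome 3, had contacts of 120.5, 31.1, 78.0, 50.1 and 40.5 in the order of the time points. The log2 change was -0.63 (-0.83 to -0.42) at 4 h and -1.27 (-1.50 to -1.03) at 16 h. The right anchor of this loop was among the most connected of all, with 79 loops of the set, whose summed contact went from 506.9 at 0 m to 393.1 at 4 h and 215.7 at 16 h. A loop outside coding genes on chromosome 21, nearest to N6AMT1, a methyltransferase gene, was also lower at 16 h, with contacts of 60.5, 28.2, 51.3, 41.6 and 25.8 from 0 m to 72 h. A loop on chromosome 10 was the one that gained most among the 12 strongest, from 35.3 at 0 m to 68.0, 45.5, 87.5 and 69.5 at the later times, a log2 change of 1.31 (1.01 to 1.62) at 16 h. In the annotation used it lay outside coding genes, with the ASCC1 start as the nearest, 46467 bp from the left anchor, and a lncRNA start at the right anchor. A coding start that this annotation lacks would be missed. Inside the receptor tyrosine kinase gene ERBB2, a 10 kb loop had contacts of 32.3, 43.9, 40.8, 48.6 and 43.4, a change of 0.59 (0.25 to 0.93) at 16 h. The loops in NFIX, which encodes a nuclear factor I transcription factor, and in RERE, a transcriptional corepressor gene, differed less, by 0.35 (0.09 to 0.61) and 0.15 (-0.13 to 0.43), of which the last turns negative with the equal-total scaling given below. Of the 12 strongest loops, 9 were higher and 3 lower at 16 h than at 0 m, the third being in PTPRF, a receptor phosphatase gene, at -0.22 (-0.56 to 0.11). The mean contact that chose these 12 includes the 16 h value, so the count is a description of the choice as well. All 207 loops with a mean contact of 16 or more together changed by 0.40 at 16 h.

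**Figure D1:**
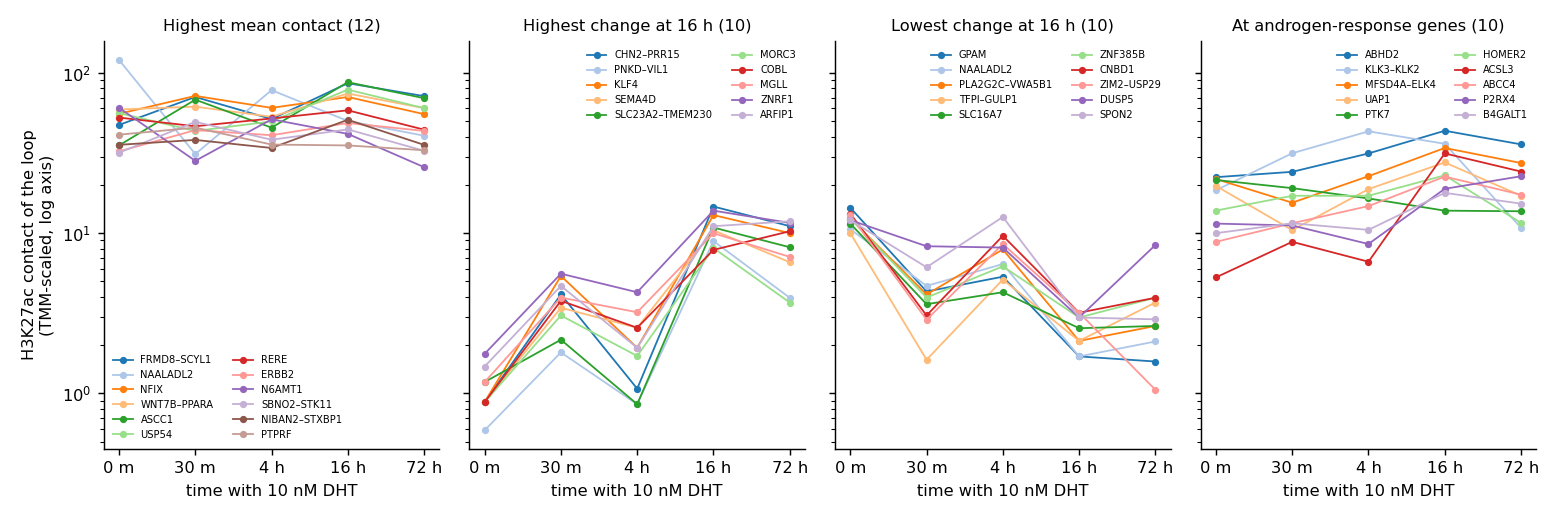
H3K27ac contact (TMM-scaled, log axis) of single loops at each time point, 1 line per loop, named by the coding gene that holds an anchor or the nearest coding start. The 10 loops with the highest change at 16 h start at contacts of 0.588 to 1.76 and the 10 with the lowest change at 9.99 to 14.4, and both groups were picked by their 0 m and 16 h values.

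Summed over all 141656 loops, H3K27ac contact was lower than at 0 m at 30 m, 16 h and 72 h and nearly level at 4 h. The mean contact per loop, 1.35 without DHT, was 1.10 after 30 m, 1.34 after 4 h, 1.22 after 16 h and 1.20 after 72 h. These are log2 changes of -0.30, -0.01, -0.15 and -0.18. The median of the single changes among loops with at least 20 read pairs was instead above 0 at 4 h (0.03) and 16 h (0.08), and -0.07 and -0.02 at the other times. Loops of the same length range, of any class, changed by 0.00, -0.02, 0.01 and 0.00 at the same times, and loops of all lengths together by 0.09, 0.07, 0.25 and 0.17. Scaling to equal totals in place of TMM lowers every H3K27ac change by the values for all lengths, so a gain smaller than these turns into a loss on that scale. Promoter to distal loops found only with H3K27ac moved the other way at 30 m, with a mean contact of 1.31 at 0 m and 1.47 at 30 m. The non-promoter loops were lower than these after 30 m, with a difference in log2 change of -0.46 (-0.47 to -0.46). It was -0.18 (-0.19 to -0.17) after 16 h and -0.26 (-0.26 to -0.25) after 72 h, while at 4 h the difference was 0.01 (0.01 to 0.02). Against non-promoter loops found with both marks the 4 differences, in order of time, were -0.19, 0.01, -0.34 and -0.21. Among loops with a mean contact of 1 to below 4, those at 30 m, 16 h and 72 h shrank to -0.11, -0.20 and -0.09. Against non-promoter loops found only with H3K4me3 they were -0.18, -0.04, -0.10 and -0.08. The 16 h value was -0.02 (-0.04 to -0.00) in loops of 20 to 200 kb and -0.02 (-0.04 to 0.01) at a mean contact of 1 to below 4, where the 30 m value was -0.10 and the 72 h value 0.02.

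H3K4me3 contact at these loops was low throughout, as the rule implies, and its course over time was another. The mean contact per loop from first to last time point was 0.296, 0.249, 0.272, 0.330 and 0.322. Thus the later time points, lower than 0 m in H3K27ac, were higher in H3K4me3, by 0.16 (0.15 to 0.16) at 16 h and 0.12 (0.11 to 0.13) at 72 h. Over loops with at least 20 H3K4me3 read pairs, however, the median of single changes at 72 h was -0.19. All loops of the series had changed by 0.14 at 16 h and those of the same length range by 0.09. With equal totals the 16 h gain of the non-promoter loops was only 0.02. At 72 h all loops of the series had changed by -0.13 and promoter to distal loops by -0.11 in H3K4me3. The H3K4me3 change of the non-promoter loops at 16 h was higher by 0.10 (0.09 to 0.12) than that of promoter to distal loops and differed by -0.00 (-0.02 to 0.02) from that of non-promoter loops found with both marks.

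**Figure D2:**
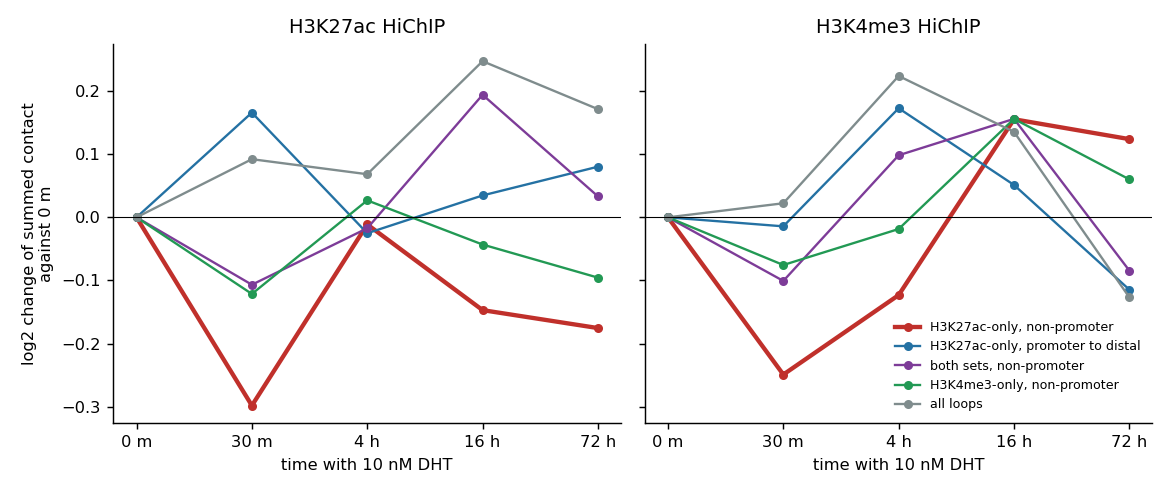
Log2 change of summed contact against 0 m (y axis) at each time with 10 nM DHT (x axis), for H3K27ac on the left and H3K4me3 on the right, with 1 line per loop class. The H3K27ac-only non-promoter loops are the lowest line at 30 m, 16 h and 72 h in H3K27ac, at -0.30, -0.15 and -0.18, and among the highest at 16 h and 72 h in H3K4me3.

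Long loops were lower than short ones. At 16 h the log2 change of H3K27ac contact was 0.05 for loops of 10 to under 20 kb, -0.03 for 20 to 50 kb, -0.17 for 50 to 100 kb, -0.26 for 100 to 200 kb, -0.34 for 200 to 500 kb and -0.42 for 500 kb to 1 Mb. At 30 m the same classes ran from -0.05 to -0.78, and at 4 h from 0.15 to -0.20. Promoter to distal loops of the same lengths ran from 0.17 to -0.06 at 16 h, so the difference between both kinds widened from -0.11 (-0.13 to -0.09) in the shortest class to -0.36 (-0.40 to -0.32) in the longest. At 4 h it was between -0.01 and 0.03 in all 6 classes. In H3K4me3 the long loops were instead the higher ones at 16 h, with changes of 0.11, 0.06, 0.17, 0.23, 0.30 and 0.36 from the shortest to the longest class, of which the lowest was that of 20 to 50 kb. Promoter to distal loops had a like order in H3K4me3, with 0.03, -0.03, 0.04, 0.11, 0.15 and 0.17, so it was not particular to the non-promoter loops. By mean contact the times differed. The 207 loops with a mean contact of 16 or more were higher by 0.40 at 16 h, against -0.41 for the 62880 loops of 0.5 to below 1 and -0.34 for those under 0.5. At 4 h the loops under 0.5 stood highest, at 0.16, and those of 16 or more at -0.01. Mean contact shares its read pairs with the change.

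Base composition moved with the same pattern. The bins of these loops had a mean GC content of 42.9%, against 47.2% for promoter to distal loops and 40.9% for all bins of the genome. In 5 classes of GC content of equal size over all loops, with cuts at 40.7%, 43.6%, 46.6% and 50.6%, the H3K27ac change at 30 m was -0.79, -0.30, -0.08, 0.09 and 0.16 from the lowest to the highest class. At 16 h it was -0.37, -0.07, 0.01, 0.03 and -0.06. Within each class the non-promoter loops were still lower than promoter to distal loops, by differences of -0.43 to -0.17 at 30 m and -0.25 to -0.04 at 16 h, whereas at 4 h they were higher by 0.04 to 0.11. The part of GC content in the changes was not tested further.

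**Figure D3:**
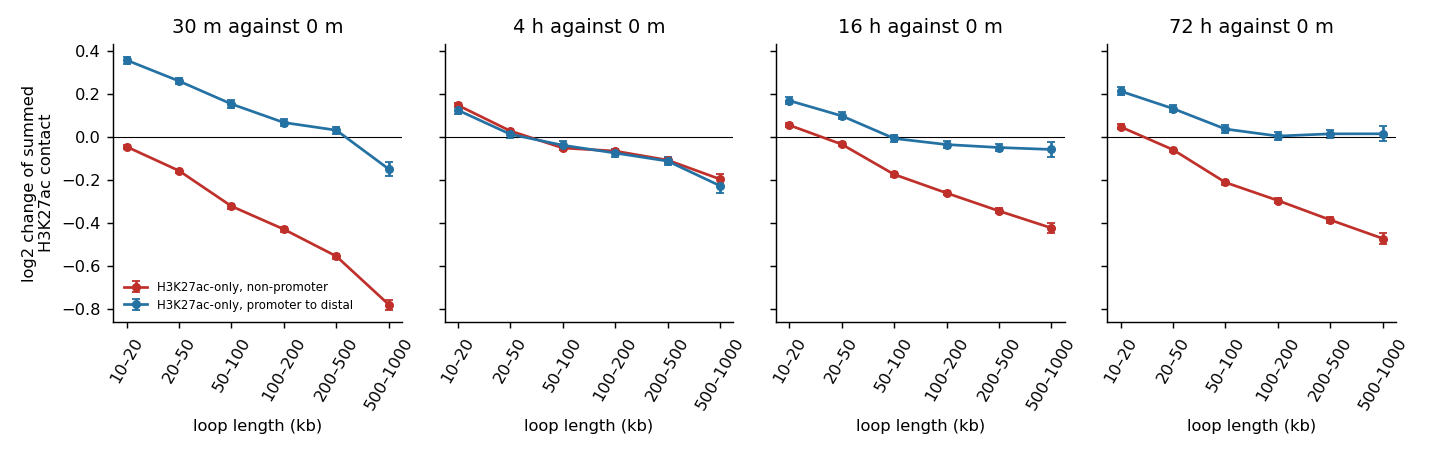
Log2 change of summed H3K27ac contact against 0 m (y axis) by loop length (x axis), in 1 panel per time point, with exact 95% counting intervals. The non-promoter loops at 16 h run from 0.05 in the shortest class to -0.42 in the longest, while at 4 h both kinds of loop lie together.

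Only the better covered loops allow single changes to be read. With at least 20 read pairs at both times together and a 2-fold difference in contact asked for, 2013 of 14983 non-promoter loops (13.4%) were higher at 16 h than at 0 m, where 18.3% of all loops tested were, and 1415 (9.44%) were lower, where 5.9% of all were. At 4 h, 1068 of 16144 (6.62%) were higher and 798 (4.94%) lower, beside 7.02% and 3.02% of all loops. At 30 m, 1176 of 15827 (7.43%) were higher and 2104 (13.3%) lower, beside 10.7% and 6.02%. At 72 h, 1436 of 12027 (11.9%) were higher and 1452 (12.1%) lower, beside 15.4% and 6.61%. Scaled to equal totals, the loops past 2-fold were 1299 higher and 2301 lower at 16 h, and 989 higher and 1956 lower at 72 h, so the balance between both directions rests on the scale. It rests on the read-pair minimum as well. With at least 40 read pairs, 567 of 4069 loops were higher at 16 h and 165 lower, a smaller share lower than with 20. The share over all loops at that minimum was not computed. Loops in general include those under 10 kb, and among loops of any class with the same length range the shares higher were 11.9%, 5.54%, 15.7% and 13.7% at 30 m, 4 h, 16 h and 72 h, and those lower 7%, 4.41%, 6.36% and 7.88%. That range includes the non-promoter loops themselves, and no difference from it was tested. At 4 h the shares lay near each other in both directions. Among 4256 loops with at least 100 H3K27ac read pairs in all, contact was highest at 0 m in 18.0% and at 16 h in 31.7%, compared with 6.78% and 37.6% of 28571 other loops.

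The largest gains were picked by their 0 m and 16 h values among 4069 loops with at least 40 read pairs at these times together, and are given as a description. First was a 160 kb loop from CHN2, a Rac-regulating protein gene, to the region of PRR15 (chr7:29487001-29488000 to chr7:29647001-29648000), with 3, 23, 5, 69 and 42 read pairs from 0 m to 72 h and contacts of 0.882, 4.14, 1.07, 14.6 and 11.1. A loop outside coding genes, nearest to KLF4, a zinc-finger transcription factor gene (chr9:110502001-110503000 to chr9:110587001-110588000), had contacts of 0.882, 5.40, 1.92, 12.95 and 10.0. Between PNKD and VIL1, the gene of the actin-binding protein villin, the contacts were 0.588, 1.80, 0.855, 8.92 and 3.95. In MGLL, which encodes the lipase of monoacylglycerols, they were 1.18, 3.96, 3.20, 9.98 and 7.10. Loops at SEMA4D, SLC23A2, MORC3, COBL, ZNRF1 and ARFIP1 completed the 10, with log2 changes at 16 h of 2.91 to 3.56. None of the 10 had more than 10 H3K4me3 read pairs at 16 h, and in all 10 the 4 h contact was far under the 16 h contact.

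The largest losses were picked in the same way. A 40 kb loop outside coding genes, 221022 bp from the start of GPAM, a gene of glycerolipid synthesis (chr10:113682001-113683000 to chr10:113722001-113723000), had 49, 24, 25, 8 and 6 read pairs and contacts of 14.4, 4.32, 5.34, 1.70 and 1.58. At the secreted matrix protein gene SPON2, a loop had contacts of 12.05, 6.12, 12.6, 2.97 and 2.89, so that it was lower at 30 m, back at its first level at 4 h and lower again at 16 h. The DUSP5 loop, near the gene of a MAP kinase phosphatase, went from 12.05 at 0 m to 2.97 at 16 h and stood at 8.42 at 72 h. Another loop of NAALADL2 that ended at the same anchor as the strong loop above had 36 read pairs at 0 m and 8 at 16 h. The remaining 6, at PLA2G2C, TFPI, SLC16A7, ZNF385B, CNBD1 and ZIM2, had log2 changes at 16 h between -2.54 and -2.02.

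The 10 strongest loops near androgen-response genes were 10 to 25 kb long, and most lay within coding genes. Between KLK3 and KLK2 (chr19:51352001-51353000 to chr19:51372001-51373000) the contacts from 0 m to 72 h were 18.5, 31.5, 43.2, 36.1 and 10.8, and this was the only loop of the 10 with its highest value at 4 h. The log2 change was 1.22 (0.81 to 1.65) at 4 h. The loop upstream of ACSL3, an acyl-CoA synthetase gene (chr2:223652001-223653000 to chr2:223662001-223663000), which holds the element shown above, stayed low until 4 h, at 5.29, 8.82 and 6.62, and reached 31.4 at 16 h and 24.2 at 72 h. Its change at 16 h was 2.57 (1.86 to 3.36). In ABHD2, a lipid hydrolase gene, contacts of 22.3, 24.1, 31.4, 43.5 and 35.8 were measured, and in ABCC4 8.82, 11.5, 14.7, 22.5 and 17.4. B4GALT1, a galactosyltransferase gene, had 9.99, 11.5, 10.5, 17.8 and 15.3. Loops at ELK4, UAP1, HOMER2 and CAMKK2 changed by 0.49 to 0.73 at 16 h. Only the loop in PTK7, which lies in the neighbourhood of SRF, was lower, at -0.64 (-1.14 to -0.13). The mean contact that picked these 10 includes the 16 h value. Strong loops of the whole set were higher at 16 h too, by 0.26 at a mean contact of 8 to below 16 and by 0.40 at 16 or more.

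Around the androgen-response genes as a group, more neighbourhoods were higher at 4 h than around coding genes in general. A neighbourhood was made of the non-promoter loops with an anchor within 100 kb of the start of a gene, and those with 20 read pairs at both times together were counted. At 4 h, 58 of 83 androgen-response genes lay above their 0 m contact, beside 57.8% of all coding genes, and at 16 h 38 of 82 did, beside 37.8%. At 30 m the order was the other way, with 26 of 82 beside 44.6%, and at 72 h 34 of 82 did, beside 42.8%. KLK2 and KLK3, with the same 31 loops, count as 2 genes in each, and the differences from coding genes in general were not tested. The list holds the androgen-response genes named in a source table of the study, which may not be the same list as in every part of it. Each of its 89 genes had at least 1 loop nearby, with a median of 28, against 13 for all coding genes. Summed contact of their 2773 loops changed by 0.19 (0.16 to 0.22) at 4 h and by 0.06 (0.02 to 0.09) at 16 h, and the latter turns negative with equal totals. For the loops of all coding genes the changes were 0.01 and -0.10.

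Among the androgen-response genes, ZMIZ1 had the most loops nearby, 124, followed by TMPRSS2 with 110 and NDRG1 with 96. The loops near ZMIZ1 held 436, 788, 653, 574 and 442 read pairs, a log2 change of 0.12 (-0.05 to 0.30) at 4 h. Around TMPRSS2, the androgen-driven serine protease gene, the change was 0.30 (0.12 to 0.47) at 4 h and 0.02 (-0.16 to 0.20) at 16 h. NDRG1, a stress-response gene, stood at 0.22 (0.06 to 0.37) and 0.20 (0.05 to 0.36). Some genes with fewer loops moved further, and these are named after their values were seen. The 54 loops near PMEPA1, a gene of a TGF-beta pathway inhibitor, changed by 1.16 (0.87 to 1.46) at 4 h and 0.41 (0.10 to 0.73) at 16 h. The 31 loops near KLK2 and KLK3 changed by 0.93 (0.73 to 1.14) and 0.44 (0.23 to 0.66), and at 72 h by -0.75. Near ACSL3 it was the later time that differed, with -0.08 (-0.37 to 0.20) at 4 h and 0.96 (0.72 to 1.22) at 16 h. Others went as far down. The 78 loops near MAP7, a gene of a microtubule-associated protein, stood at -0.38 (-0.58 to -0.19) at 4 h and -0.85 (-1.06 to -0.64) at 16 h, and the 35 loops near INSIG1, a regulator of sterol synthesis, at -0.97 (-1.33 to -0.60) at 16 h.

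Genes with known roles beside these gave a mixed picture. Most androgen-repressed genes lay below their 0 m contact, with 2 of 7 above 0 m at 4 h and 0 of 7 at each other time, beside 57.8% of all coding genes at 4 h and 37.8% to 44.6% at the other times. Their 311 loops together changed by -0.18 (-0.28 to -0.08) at 4 h and -0.58 (-0.68 to -0.47) at 16 h. Near ACKR3, which encodes an atypical chemokine receptor, 98 loops held 690, 679, 872, 635 and 417 read pairs, a change of -0.59 (-0.75 to -0.43) at 16 h. OPRK1, an opioid receptor gene, had 78 loops and a change of -0.71 (-0.94 to -0.49). The 57 loops near UGT2B17, a gene of androgen glucuronidation, stood at -0.25 (-0.52 to 0.02), but this gene has a near-identical neighbour, UGT2B15, with which it shared 27 loops, so its reads are uncertain. Of the luminal transcription factors, 7 of 12 were higher at 4 h and 3 of 12 at 16 h, and the former is about the share over all coding genes (57.8%). Near FOXA1, 69 loops carried 1112 read pairs at 0 m, the most of any listed gene's neighbourhood named here, and changed by -1.29 at 30 m, -0.27 (-0.38 to -0.15) at 4 h and -0.46 (-0.58 to -0.34) at 16 h. The epithelial factors EHF with 118 loops and GRHL2 with 110 stood at -0.17 (-0.31 to -0.02) and 0.02 (-0.12 to 0.16) at 16 h. XBP1, of the unfolded protein response, had 78 loops and a value of 0.01 (-0.23 to 0.25). ELF3, an epithelial ETS factor gene picked here for its values, had the largest gain of the 12, with 255, 742, 348, 749 and 592 read pairs and a change of 1.09 (0.88 to 1.296) at 16 h.

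Immediate early genes, which answer growth signals within minutes, were higher in 8 of 10 cases at 4 h and 3 of 10 at 16 h, beside 57.8% and 37.8% of all coding genes. Of these MYC had 108 loops, FOS 75 and DUSP1 56, with changes at 16 h of -0.27 (-0.45 to -0.08), 0.17 (-0.01 to 0.36) and -0.26 (-0.45 to -0.07). The cell label was checked against marker genes, as far as loops can show it. The 7 luminal prostate markers had a median of 49 loops nearby and the 10 markers of other lineages 11.5. Of the luminal markers 5 of 7 were higher at 4 h and 3 of 7 at 16 h, and of the others 4 of 8 and 2 of 9. These counts are not of separate loops, since KLK2 and KLK3 had the same 31 loops and KRT8 and KRT18 shared 48 of 49. The other-lineage genes with most loops were VIM with 58, CHGA with 47 and KRT14 with 29, at -0.55 (-0.81 to -0.28), 0.07 (-0.15 to 0.30) and 1.25 (0.76 to 1.77) at 16 h, the last from 44 read pairs at 0 m. KRT5, which encodes the usual partner of KRT14, went the other way, by -2.05 (-3.68 to -0.66) from 18 read pairs, and the 191 loops of this list together changed by -0.17 (-0.31 to -0.03). The 320 loops of the luminal markers together changed by about as much at 16 h, by -0.18 (-0.26 to -0.10).

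**Figure D4:**
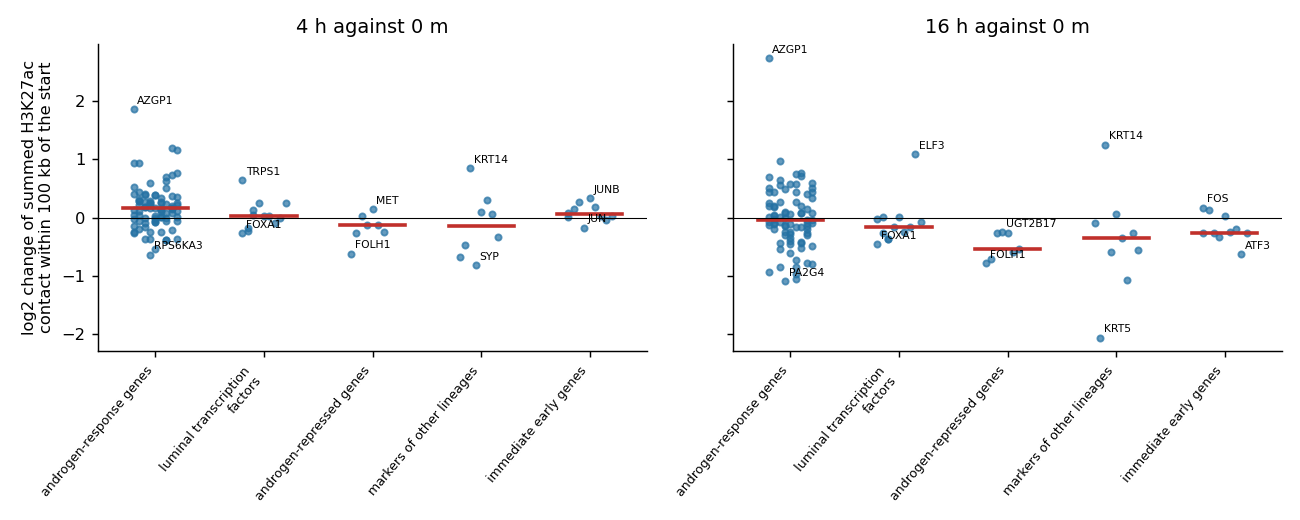
Log2 change of summed H3K27ac contact against 0 m for the non-promoter loops within 100 kb of each listed gene, with 1 point per gene, by gene list, at 4 h and 16 h. Androgen-response genes lie mostly above 0 at 4 h (58 of 83), and all 7 androgen-repressed genes lie below 0 at 16 h.

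All 3 motifs searched were more frequent at the anchors than over the genome, the response element and the FOXA motif by little. The full androgen response element was present in the bins of 6.94% (6.78% to 7.10%) of anchors, against 6.18% of all 571441 bins of 5 kb. The FOXA motif TGTTTAC, on either strand, was in 55.6% against 54.6%, and the CTCF core in 3.57% (3.46% to 3.69%) against 1.86% (1.83% to 1.90%). Promoter anchors held the CTCF core about as often, in 3.36% (3.09% to 3.64%). The log2 change of H3K27ac contact at the 19562 loops with the response element at 1 or both ends exceeded that of loops without it by 0.06 (0.05 to 0.07) at 30 m, 0.05 (0.04 to 0.07) at 4 h, 0.07 (0.06 to 0.09) at 16 h and 0.03 (0.02 to 0.04) at 72 h. At 16 h both were below 0, with -0.09 for loops with the element at 1 end and -0.16 for those without. In H3K4me3 the differences lay between -0.00 and 0.02, and each interval spanned 0. Loops with a FOXA motif were lower in H3K27ac than those without, by differences of -0.21 (-0.23 to -0.20) at 30 m, -0.07 (-0.08 to -0.06) at 4 h, -0.05 (-0.06 to -0.04) at 16 h and -0.08 (-0.09 to -0.06) at 72 h, and the motif is itself rich in A and T. In H3K4me3 they were higher, by 0.07, 0.09, 0.10 and 0.11 in the same order. The 11156 loops with a CTCF core exceeded those without in H3K27ac by 0.08 (0.06 to 0.09) at 30 m and 0.03 (0.01 to 0.05) at 4 h. At 16 h and 72 h these differences were 0.01 (-0.01 to 0.02) and -0.01 (-0.03 to 0.01). An excess at 30 m and 4 h was thus not particular to the response element, and the part of GC content in the motif differences was not tested.

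CTCF cores were rare, but where both anchors held them in 1 orientation each, they mostly faced each other. This was so in 184 of 332 loops (55.4%, 49.9% to 60.8%), while 20 (6.02%, 3.72% to 9.15%) pointed outward. Other loops of the same length range had 245 of 555 facing (44.1%, 39.96% to 48.4%) and 88 outward (15.9%, 12.9% to 19.2%). Outside chromosome 8 there were 180 facing pairs. The CSRP1 loop whose cores are printed above was the strongest of those in which neither printed stretch overlapped an exon. Its contacts were 20.3, 21.6, 21.6, 20.6 and 20.8 from 69, 120, 101, 97 and 79 read pairs, a log2 change of 0.02 (-0.44 to 0.49) at 16 h.

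Most of the loops were tied to a promoter at 1 remove. In 114534 of them (80.9%) another H3K27ac loop joined at least 1 anchor to a coding promoter, and in 45411 (32.1%) both anchors were joined to the same promoter. Allowing the anchors to differ by 1 bin raised the latter share to 52.1%. The remaining 27122 (19.1%) had no such link. H3K27ac contact without any promoter link was lower after 30 m and 16 h of DHT, with changes of -0.56 at 30 m and -0.43 (-0.44 to -0.41) at 16 h, while loops whose ends shared a promoter changed by -0.21 and 0.01 (-0.00 to 0.01). At 4 h the values were 0.01 and -0.03. In H3K4me3 the unlinked loops were instead higher at 16 h, by 0.27 (0.24 to 0.29), and at 72 h, by 0.45 (0.42 to 0.48), while those with a shared promoter stood at 0.10 and -0.00. Unlinked loops were shorter, with a median of 90 kb against 130 kb, and weaker, with a median mean contact of 0.662 against 0.949, and the part of these in the difference was not tested. H3K27ac contact also differed by where the anchors lay. Loops with both ends outside coding genes changed by -0.42 at 30 m and -0.27 (-0.27 to -0.26) at 16 h, and loops inside 1 coding gene by -0.24 and -0.04 (-0.04 to -0.03). Those with a lncRNA start at an end stood at -0.10 and -0.06 (-0.07 to -0.04). In H3K4me3 the changes of these 3 kinds at 16 h were 0.17, 0.16 and 0.08.

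A few anchors took many loops. The median anchor had 2 and 47.0% had only 1, but 1034 anchors with 20 or more touched 19.96% of all the loops. The most connected, 484831 bp from the nearest start, that of the zinc-finger gene ZNF608, had 84 loops, which together went from 604 read pairs and a contact of 177.5 at 0 m to 552 read pairs and 117.2 at 16 h, a change of -0.60 (-0.77 to -0.43). The anchor in the septin gene SEPTIN9 had 82 loops and changed by 0.12 (-0.07 to 0.31). Beyond the NAALADL2 anchor with 79 loops, at -1.23 (-1.35 to -1.12), and an anchor near ST3GAL1, a sialyltransferase gene, with 77 loops, at 0.04 (-0.11 to 0.20), an anchor far from genes, nearest to the monocarboxylate transporter gene SLC16A7, had 76 loops whose contact went from 134.9 at 0 m to 103.4 at 4 h and 49.9 at 16 h, a change of -1.43 (-1.67 to -1.20). The anchor nearest to LRRC4C with 75 loops stood at -0.73 (-0.91 to -0.55) and that nearest to ZPLD1 with 68 at 0.00 (-0.18 to 0.19).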

How the data were processed

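H3K27ac and H3K4me3 HiChIP was carried out in LNCaP cells. The authors trimmed reads with Trim Galore 0.5.0, aligned them to hg19 with Bowtie2 within HiC-Pro 3.1.0, removed duplicates, and called loops per mark on merged time points with FitHiChIP (5 kb bins, 5 kb to 3 Mb, q 0.01). The deposited signal is the contact count of each loop and time point, scaled by the authors with TMM. Each table gives the middle 1 kb of the bins. Whether both H3K27ac replicates entered a table is not given in the sources used here.

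All values were whole multiples (tolerance 0.001) of that of 1 read pair, so read pairs were recovered. Each loop was counted once. With 1 value per loop, mark and time point no count test was possible, and exact 95% intervals for ratios and shares (Clopper-Pearson) cover counting error only. Intervals for differences of log2 changes use inverse counts. For a loop listed at 0, 3 read pairs were used. Promoters, introns and exons came from Gencode 44 lifted to GRCh37. GC and motifs came from GRCh37. The loops, gene lists and tests were chosen with earlier results of these data known. Named loops were the 12 with the highest mean contact, the 10 with the highest and the 10 with the lowest change at 16 h (at least 40 read pairs), and the 10 strongest near androgen-response genes, without overlap, plus the 3 genes with most loops in each list. Scripts (Python 3.11.15, numpy 2.4.6, pandas 2.3.3, scipy 1.17.1, matplotlib 3.10.9) were tested on simulated data. The alternatives tried concerned scaling, length, promoter windows, read-pair minimum, fold and window size. Some results planned for these loops are not reported here.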

Additional observations from a re-analysis of the deposited data

How the results depend on the processing

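Each log2 change was recomputed under other settings. Values are given for 30 m, 4 h, 16 h and 72 h in that order, and a value counted as moved when it left its own counting interval, which is narrow for sums. Replicates were not separate columns. No paired analysis was possible because the tables hold a single value for a mark and time point, and therefore neither leaving out a replicate nor a count model was run.

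Summed H3K27ac contact kept its sign under every alternative but 1. With a minimum length of 20 kb the changes were -0.37, -0.052, -0.20 and -0.23. With promoters of every coding transcript left out the changes were -0.36, -0.022, -0.18 and -0.21. With the whole 5 kb bin kept clear of promoters the changes were -0.32, -0.016, -0.16 and -0.19. With no H3K4me3 loop allowed within 1 bin the changes were -0.33, -0.015, -0.18 and -0.20. With the strongest 1% left out the changes were -0.32, -0.011, -0.20 and -0.20. With equal totals the changes were -0.39, -0.080, -0.39 and -0.35. The median of single changes over loops with at least 20 read pairs was -0.070, 0.026, 0.084 and -0.022, so it was above 0 at 4 h and 16 h, where the sum was below. Why the median and the sum differ was not tested. For H3K4me3 the corresponding changes were -0.25, -0.11, 0.17 and 0.14 with a minimum length of 20 kb, -0.24, -0.12, 0.18 and 0.20 with promoters of every coding transcript left out. They were -0.26, -0.12, 0.16 and 0.16 with the whole 5 kb bin kept clear of promoters and -0.27, -0.15, 0.16 and 0.18 with no H3K4me3 loop allowed within 1 bin. With the strongest 1% left out they were -0.25, -0.13, 0.16 and 0.14, and with equal totals -0.27, -0.35, 0.020 and 0.25. The H3K4me3 median over loops with 20 read pairs was -0.21, -0.12, 0.040 and -0.19, and the sign at 72 h turned, and the cause was not tested.

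Against H3K27ac-only promoter to distal loops the differences were -0.45, 0.0062, -0.17 and -0.24 in loops of 20 to 200 kb and -0.44, 0.017, -0.14 and -0.21 at a mean contact of 1 to below 4. Against non-promoter loops of both marks the differences were -0.16, 0.0035, -0.31 and -0.18 in loops of 20 to 200 kb and -0.11, 0.0066, -0.20 and -0.090 at a mean contact of 1 to below 4. Against H3K4me3-only non-promoter loops the differences were -0.13, -0.031, -0.022 and -0.011 in loops of 20 to 200 kb and -0.10, -0.021, -0.016 and 0.015 at a mean contact of 1 to below 4. The last value against H3K4me3-only loops at 72 h reversed its sign, and the cause was not tested. Counts of loops past 2-fold fall as the read-pair minimum rises, since fewer loops are tested, and at 16 h the share lower fell as well. Higher loops numbered 4934, 5726, 5950 and 5474 with 10 read pairs, 221, 100, 567 and 328 with 40, 2913, 2902, 4067 and 2807 at 1.5-fold and 954, 904, 1299 and 989 with equal totals. Lower loops numbered 9733, 5707, 8175 and 7332, 379, 53, 165 and 225, 4074, 2510, 3056 and 2875 and 2558, 952, 2301 and 1956 in the same settings. With equal totals lower loops outnumbered higher ones at all 4 times.

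For anchors within 50 kb of a start, the changes at 4 h and 16 h were 0.21 and 0.092 for androgen-response genes, -0.088 and -0.040 for luminal transcription factors, -0.16 and -0.55 for androgen-repressed genes, -0.061 and -0.28 for markers of other lineages, 0.14 and -0.14 for luminal markers, and 0.082 and 0.0061 for immediate early genes. For anchors within 250 kb of a start, the changes at 4 h and 16 h were 0.14 and -0.0021 for androgen-response genes, -0.038 and -0.19 for luminal transcription factors, -0.22 and -0.55 for androgen-repressed genes, -0.035 and -0.19 for markers of other lineages, 0.041 and -0.29 for luminal markers, and 0.064 and -0.081 for immediate early genes. Thus the 16 h values of androgen-response genes at 250 kb and of immediate early genes at 50 kb reversed, and the cause was not tested. In the 1 kb anchor alone the motifs were less frequent, at 1.38% for the response element, 15.4% for FOXA and 0.707% for CTCF, or 1.11, 1.04 and 1.87 times the share over all windows. Anchors matched within 1 bin gave promoter links for 86.1% of loops and a shared promoter for 52.1%. Depth limits what single loops show, since the median loop held 3 or 4 H3K27ac read pairs per time point.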

Other observations

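The loops were spread unevenly over the genome. Chromosome 22 had 98.2 loops per Mb, chromosome 21 had 83.5 and chromosome 17 had 77.4, while chromosome 4 had 32.1 and chromosome X 19.2. Of the windows of 1 Mb, that of MYC on chromosome 8 had the most loops, 398, whose H3K27ac contact changed by -0.44 (-0.53 to -0.35) at 16 h. The largest change among the 10 windows with most loops was -1.50 (-1.60 to -1.40), in a window of chromosome 8 with 296 loops and DCAF4L2 as its only coding start. The 1 Mb of chromosome 3 that holds the start of NAALADL2 had 392 loops, whose H3K27ac contact changed by -0.72 (-0.82 to -0.63) at 16 h, and the next window, without any coding start, had 321 loops and a change of -0.97 (-1.05 to -0.89). On chromosome 14 the window of PRKD1, a protein kinase gene, had 367 loops and changed by -0.22 (-0.29 to -0.15) at 4 h and -0.10 (-0.17 to -0.03) at 16 h. A window on chromosome 7 with IKZF1, DDC and GRB10 had 365 loops and stood at 0.04 (-0.04 to 0.12) at 16 h. The window of chromosome 21 with USP25, a deubiquitinase gene, had 304 loops and changed by -0.39 (-0.47 to -0.31).

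AZGP1, the gene of a secreted zinc-binding glycoprotein, had only 4 loops within 100 kb, and these held 4, 35, 20, 37 and 22 H3K27ac read pairs from the first to the last time point. The log2 change at 16 h was 2.74, with a wide interval of 1.26 to 4.69. Loops near the start of another transcript of a coding gene, 31682 in number, changed by -0.12 at 30 m and -0.05 at 16 h.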
